A study of Mus musculus with 4 samples.

Results

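Expression of 10 glutathione S-transferase genes was followed in mouse liver at 4 ages: Gsta2, Gsta3 and Gsta4 of the alpha class, Gstm1, Gstm2, Gstm3, Gstm4 and Gstm6 of the mu class, Gstt1 of the theta class and Gstp1 of the pi class. They were taken as the probe sets annotated to 1 of these gene symbols alone, which gave 15 of the 45101 probe sets of the array and 10 of the 18193 genes with such a probe set. All 10 genes lay above a filter on level (3.74 on the log2 scale, the median of the probe set means), which 11577 genes passed. The livers came from males of the inbred strain C57BL/6J aged 4, 8, 13 and 21 months, all kept on a low-fat diet fed ad libitum. Each age is represented by 1 oligonucleotide array, hybridised with RNA pooled from 6 mice. No difference between ages therefore has a replicate check, p-values are not reported, the variation among mice was not measured, and the number of arrays limits the precision. Levels are log2 expression values, and differences are the later age minus the earlier age on that scale, where 1 is 2-fold.

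Glutathione S-transferases are enzymes that join the tripeptide glutathione to electrophilic compounds, which makes drugs, carcinogens and products of lipid peroxidation more soluble and ready for export. The liver is the main organ of this detoxification, and hepatocytes express the alpha, mu, theta and pi classes at high levels. Many of the genes respond to the stress-activated transcription factor NRF2 and to the xenobiotic receptors CAR, PXR and AHR, and in mice several also differ between the sexes, among them Gstp1, which is more abundant in males.

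Members of 1 class are close paralogues, and 25-base probes can bind RNA of more than 1 of them. Of the 15 probe sets 9 carried the plain suffix of the array design, 3 the suffix for several transcripts of a gene, 1 (Gstm3) the suffix for probes shared between transcripts and 2 (both Gstm1) the suffix for probes that can bind unrelated transcripts. The values used for Gstm3 and Gstm1 came from probe sets with these last 2 suffixes. The second probe set of Gstm3 had the plain suffix. A further probe set that names Gsta2 together with other genes was not used. No probe set was named for Gsta1 or for Gstp2 alone, so the values of Gsta2 and Gstp1 may hold signal of these copies. In the GRCm38.p6 assembly 5 of the members, the mu genes, lie on chromosome 3.

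The windows upstream of the transcription starts are shown for 5 genes on which the results turn: Gstm3 and Gstm2, with the widest ranges, Gsta2, with its highest value at 13 months, Gstp1, lower at each later age, and Gsta3, which holds the only NRF2 core found among the members. Each sequence is the 250 bases before the start from RefSeq (GRCm38.p6), 5′ to 3′ on the gene's strand, and capitals mark matches to any of the 4 short motifs searched on both strands.
Gsta2, chr9:78347146-78347395, strand -: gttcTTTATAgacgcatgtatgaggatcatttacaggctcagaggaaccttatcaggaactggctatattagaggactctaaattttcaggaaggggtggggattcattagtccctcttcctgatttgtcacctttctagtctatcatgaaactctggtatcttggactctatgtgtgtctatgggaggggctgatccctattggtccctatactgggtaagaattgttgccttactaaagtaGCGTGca
Gsta3, chr1:21240335-21240584, strand +: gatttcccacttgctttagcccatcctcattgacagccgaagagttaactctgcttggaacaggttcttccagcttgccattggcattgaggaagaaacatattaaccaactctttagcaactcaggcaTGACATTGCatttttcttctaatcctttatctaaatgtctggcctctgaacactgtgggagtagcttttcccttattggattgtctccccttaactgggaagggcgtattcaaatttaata
Gstm2, chr3:107986421-107986670, strand -: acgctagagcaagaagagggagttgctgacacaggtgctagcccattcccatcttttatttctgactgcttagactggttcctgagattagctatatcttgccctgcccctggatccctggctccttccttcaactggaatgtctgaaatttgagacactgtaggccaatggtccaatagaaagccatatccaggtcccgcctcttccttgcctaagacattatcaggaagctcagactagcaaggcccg
Gstm3, chr3:107969175-107969424, strand -: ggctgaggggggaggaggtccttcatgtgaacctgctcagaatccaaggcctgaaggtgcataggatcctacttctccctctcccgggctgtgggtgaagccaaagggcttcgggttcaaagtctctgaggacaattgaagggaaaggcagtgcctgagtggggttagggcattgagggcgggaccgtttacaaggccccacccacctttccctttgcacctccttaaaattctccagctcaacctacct
Gstp1, chr19:4037913-4038162, strand -: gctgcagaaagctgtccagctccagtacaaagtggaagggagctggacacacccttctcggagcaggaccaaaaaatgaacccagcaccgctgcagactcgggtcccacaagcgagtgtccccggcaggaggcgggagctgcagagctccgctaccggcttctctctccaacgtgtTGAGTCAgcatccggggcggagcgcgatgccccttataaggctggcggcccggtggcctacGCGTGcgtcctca
The motifs were TGACNNNGC, the core of the NRF2 antioxidant response element, TGANTCA, the AP-1 core, GCGTG, the AHR response core, and TATAAA, the TATA box. A match of the first 2 can overlap, since both can begin with the same letters. Windows were present for 9 of the 10 members, all but Gsta4, with 13 windows in all because some genes have several starts. The NRF2 core was in the window of Gsta3 alone, from -121 to -113, against 10.2% of all 32851 windows. The AP-1 core was in that of Gstp1 alone, from -74 to -68, against 6.75%. The AHR core was found in Gsta2, Gstm1 and Gstp1 (28.2% of all windows). The letters of the TATA box were in 1 window of Gstm1, from -30 to -25, and in Gsta2 (12.4%). In Gsta2 they lay far upstream, from -246 to -241, on the opposite strand. The windows of Gstm2 and Gstm3 held none of the 4. A match is a description of the letters and not a bound site, and a missing match says nothing on elements farther away.

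The arrays were alike in general measures. The array medians lay between 3.73 and 3.76 and the highest value on any array was 13.7. RNA integrity, read as the 3′ minus 5′ difference of control probe sets, differed little between ages, with 0.11 to 0.21 for Gapdh and 1.01 to 1.16 for β-actin. The label liver was checked with 10 hepatocyte markers. Of these 9 had a probe set of their own above the filter, and their summed level was between 15.67 and 15.73 on the log2 scale at all 4 ages. Of the other cell types of liver, 3 of 7 cholangiocyte markers passed the filter, without Krt19, Krt7 and Cftr, with summed levels of 5.60 to 5.69, and 3 of 8 lymphocyte markers, with 5.82 to 6.02. Endothelial markers (7 of 7) had summed levels of 10.02 to 10.17, stellate cell markers (6 of 7) 10.68 to 10.92, and erythroid markers (1 of 5, Alas2) 7.79 to 7.98. Neutrophil markers (4 of 8) summed to 6.61, 6.91, 7.10 and 7.76 at 4, 8, 13 and 21 months. The first step was in Ltf, at 3.28, 5.22 and 3.53 at 4, 8 and 13 months. At 8 vs 4 months S100a8 was at -0.09, S100a9 at -0.16 and Ngp at 0.03. Macrophage markers (10 of 10) summed to 11.41, 10.99, 11.47 and 12.19, lowest at 8 and highest at 21 months. In pooled tissue RNA, fewer cells of a type and less RNA per cell cannot be told apart.

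All 10 glutathione S-transferases were lower at 8 than at 4 months, and most of them were higher again at 13 and 21 months. The median difference at 8 vs 4 months was -0.12, with members from -0.68 to -0.08, while the median of all kept genes was 0. In the same comparison 48.7% of all kept genes were lower and 47.5% higher by any amount, and lower were also 53.2% of the 6840 genes above the 75th percentile of level, where all members lie. All 15 probe sets of the members were lower, the 5 others included. Most of these differences were small: the median absolute difference over all genes was 0.09 and its 90th percentile 0.27, and Gstm3 alone lay beyond the latter. The members share both arrays and closely similar sequences, so they do not count as 10 separate observations. For 8 of the 10 members the 8-month level was the lowest of the 4 ages, which held for 26.2% of all kept genes. For 6 of the 10 the 21-month level was the highest, which held for 30.4%. Both counts held small margins. The low of Gstm1, 0.02 below its 13-month level, moved to 13 months with the mean over probe sets (-0.02 at 13 vs 8 months), quantile normalization (-0.04) and cyclic loess (-0.02). After quantile normalization Gstm1 (-0.04) and Gstt1 (-0.015) were lower at 21 than at 4 months.

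**Figure D1:**
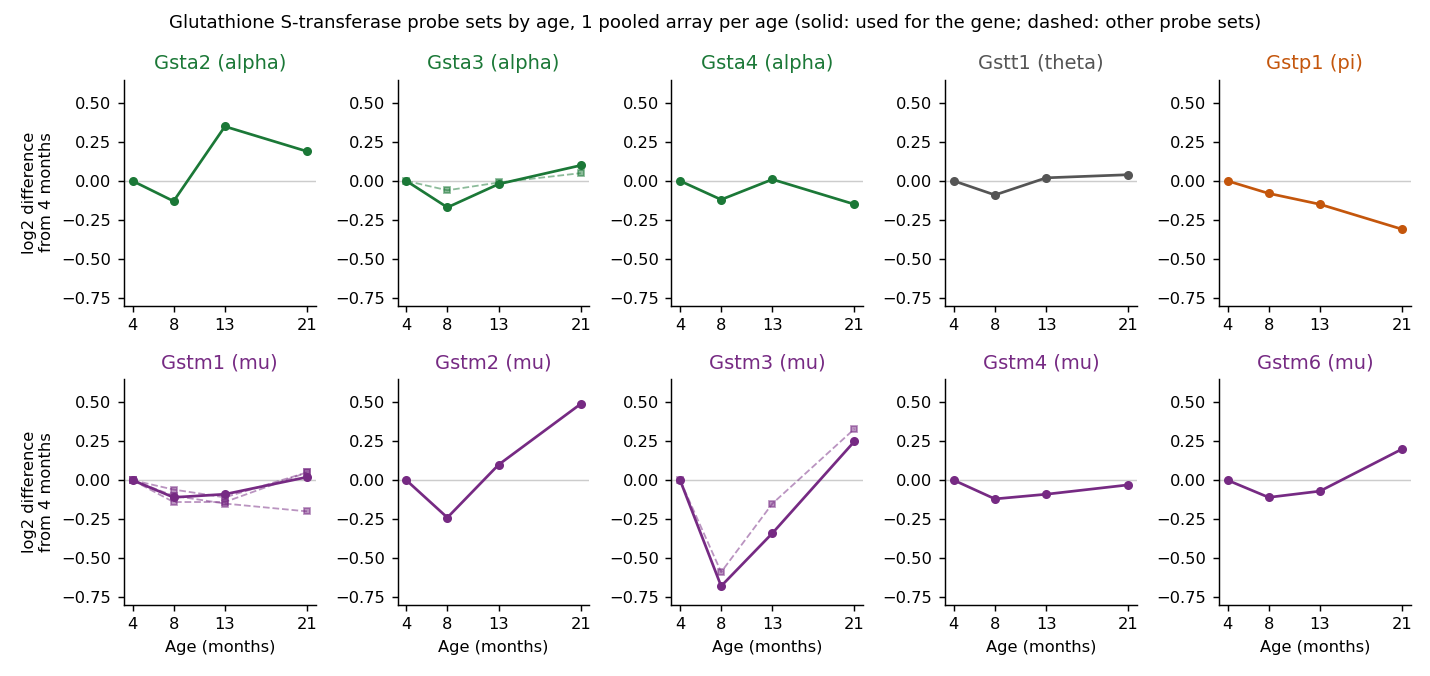
Log2 difference from the 4-month value (y axis) by age in months (x axis) for every probe set of the 10 members, 1 point per pooled array; solid lines are the probe sets used for the gene, dashed lines the other probe sets. Every line lies below 0 at 8 months, Gstm3 by 0.68 and 0.59, and among the solid lines that of Gstp1 alone goes down at each step, as does 1 dashed line of Gstm1.

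At the size of 1.5-fold, few members stood out. Gstm3 was the 1 member of 10 at least 1.5-fold lower at 8 vs 4 months, against 0.354% of all kept genes, and none was at least 1.5-fold higher (0.501%). At 13 vs 8 months no member was 1.5-fold higher (0.717%) or lower (0.363%). At 21 vs 13 months 1 member was higher, again Gstm3 (1.47%), and none lower (0.458%). That call, at 0.59, ended with the mean over probe sets (0.535), quantile normalization (0.56) and cyclic loess (0.57), which left Gstm3 just short of 1.5-fold. At 21 vs 4 months none was higher (2.1%) or lower (0.423%), and likewise none at 13 vs 4 months (0.838% and 0.458%). The comparison of 21 with 8 months, added after the values were seen, had 2 members at least 1.5-fold higher, Gstm2 and Gstm3 (2.66%), and none lower (0.7%). The 8-month pool is part of 8 vs 4, 13 vs 8 and 21 vs 8 months, and a chance deviation of that pool alone would give opposite signs in the first and the other two. Members were also counted at a smaller size of 0.32 on the log2 scale. Of 10 members 3 reached it as higher at 13 vs 8 months, Gsta2, Gstm2 and Gstm3 (3.91% of all kept genes), and 0 as lower (2.87%). The counts were 0 higher and 1 lower at 8 vs 4 months (3.22% and 3.1%), 1 and 1 at 13 vs 4 (3.96% and 3.14%), 1 and 0 at 21 vs 4 (6.14% and 3.17%), 2 and 0 at 21 vs 13 (6.12% and 3.45%) and 2 and 0 at 21 vs 8 months (7.56% and 4.72%). No member reached 2-fold in the comparisons where 1.5-fold was passed, that is lower at 8 vs 4 (0.0259%), higher at 21 vs 13 (0.311%) or higher at 21 vs 8 months (0.942%).

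The medians over the members were -0.045 at 13 vs 4, 0.07 at 21 vs 4, 0.12 at 13 vs 8, 0.085 at 21 vs 13 and 0.20 at 21 vs 8 months. The median over all kept genes was 0.01 in each of these 5 comparisons. At 13 vs 8 months 9 of 10 members were higher and 1 lower by any amount (50.2% and 45.9% of all kept genes). The counts were 7 and 3 at 21 vs 13 months (50.4% and 46.4%), 7 and 3 at 21 vs 4 months (51.4% and 45.2%), 8 and 2 at 21 vs 8 months (51.7% and 45.4%), and 4 and 6 at 13 vs 4 months (51.1% and 45.5%). With other normalizations the 21 vs 4 months count was less one-sided, with 5 of 10 members lower after quantile normalization, where 53% of all kept genes were lower, and 4 after cyclic loess, where 49.1% were.

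**Figure D2:**
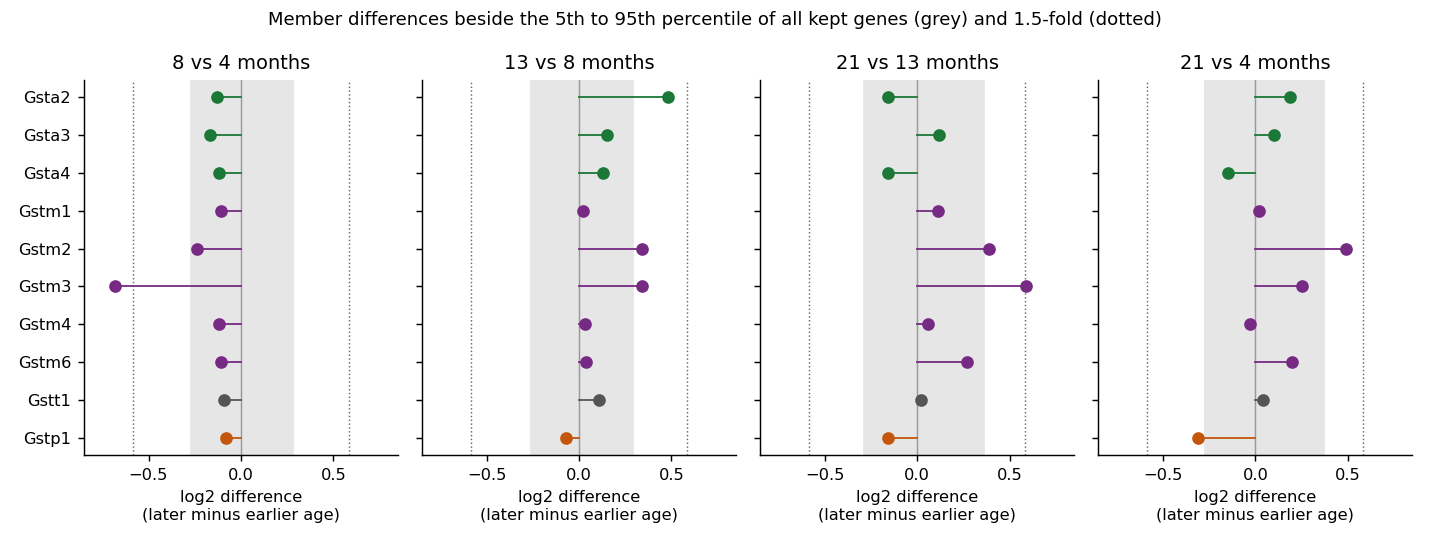
Log2 difference, later minus earlier age (x axis), for each member (rows) in 4 comparisons, with the range between the 5th and 95th percentile of all kept genes in grey and 1.5-fold as dotted lines. At 8 vs 4 months all 10 points lie left of 0 and only Gstm3, at -0.68, lies outside the grey band; at 21 vs 13 months Gstm3, at 0.59, lies just past 1.5-fold.

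Of the alpha class, Gsta2, an inducible enzyme with activity toward organic hydroperoxides, had levels of 10.20, 10.07, 10.55 and 10.39 at 4, 8, 13 and 21 months. It was the member with the highest step at 13 vs 8 months, 0.48 or 1.39-fold, larger in absolute size than 97.8% of all kept genes. Its 13-month level also exceeded the 4-month level by 0.35, and at 21 months it was 0.16 below the 13-month level. Gsta2 thus peaked at middle age, which of the other members only Gsta4 did, by a margin of 0.01.

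Gsta3, the alpha enzyme that in mice conjugates the activated form of the mould toxin aflatoxin B1, was at 11.36, 11.19, 11.34 and 11.46. Its second probe set, at 8.69, 8.63, 8.68 and 8.74, had the same order of ages with steps of at most 0.06. Both were lowest at 8 and highest at 21 months, but neither range (0.27 and 0.11) was large beside the median range of 0.22 and the 90th percentile of 0.46 over all kept genes. Gsta4, which conjugates 4-hydroxynonenal, a product of lipid peroxidation, was at 9.30, 9.18, 9.31 and 9.15. It was 0.12 lower at 8 vs 4 months and 0.15 lower at 21 vs 4 months, within a range of 0.16 that was wider than that of 30.2% of all kept genes. Over the 3 alpha genes the median was -0.13 at 8 vs 4, 0.15 at 13 vs 8 and -0.16 at 21 vs 13 months.

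The mu class held the members with the widest ranges. Gstm3, an inducible mu enzyme of mouse liver, was at 9.20, 8.52, 8.86 and 9.45 at 4, 8, 13 and 21 months, and its second probe set at 6.53, 5.94, 6.38 and 6.86. Both probe sets had the lowest value at 8 and the highest at 21 months, and both gave the order 8, 13, 4 and 21 months from low to high. Gstm3 was at -0.68 at 8 vs 4 months, a level 1.60-fold lower at 8 months, and the second probe set was at -0.59. This absolute difference exceeded that of 99.5% of all kept genes. At 21 vs 8 months the difference was 0.93, or 1.91-fold, with 0.92 from the second probe set. At 21 vs 13 months it was 0.59, just past 1.5-fold, and 0.48 from the second probe set, short of it. The range of 0.93 over the 4 ages was wider than that of 98.2% of all kept genes.

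Gstm2, a mu enzyme with 1 probe set, was at 7.99, 7.75, 8.09 and 8.48. It was the member with the largest difference at 21 vs 4 months, 0.49 or 1.40-fold, and at 21 vs 8 months it was 0.73, or 1.66-fold, higher. Its range of 0.73 exceeded that of 96.9% of all kept genes. Gstm2 thus shared the low at 8 months and the high at 21 months with Gstm3, but at 13 months it was already 0.10 above its 4-month level, where Gstm3 was still at -0.34.

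The other mu genes differed less. Gstm1, a major mu enzyme of mouse liver, was at 11.84, 11.73, 11.75 and 11.86, a range of 0.13 that was wider than that of 20.7% of all kept genes. Its 4 probe sets were all lower at 8 vs 4 months, by 0.06 to 0.14 in size, but they did not share a direction at 21 vs 4 months, where 3 were higher (0.02, 0.05 and 0.05) and 1 lower (-0.20). Gstm4 was at 8.18, 8.06, 8.09 and 8.15, and its largest difference was the -0.12 at 8 vs 4 months. Gstm6 was at 8.49, 8.38, 8.42 and 8.69, with 0.27 at 21 vs 13 months and 0.31 at 21 vs 8 months. All 5 mu members were lower at 8 vs 4 months (48.7% of all kept genes) and higher at 21 vs 13 months (50.4%). Their medians were -0.12 and 0.27. Of the 4 Gstm1 probe sets 3 were higher and 1 lower (-0.05) at 21 vs 13 months. Because the mu paralogues can share probe signal, part of a common direction may be the same RNA read by several probe sets, which was not tested.

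Gstt1, a theta enzyme that acts on small halogenated compounds, was at 10.54, 10.45, 10.56 and 10.58. Its range of 0.13 was among the narrow ones. Gstp1, the pi enzyme, was at 12.82, 12.74, 12.67 and 12.51, and it was the only member that was lower at every step, as were 3.14% of all kept genes. At 21 vs 4 months Gstp1 was at -0.31, a level 1.24-fold lower at 21 months, and 89.2% of all kept genes had a smaller absolute difference. A probe set of Gstm1 that was not used for the gene was also lower at every step, at 6.91, 6.81, 6.76 and 6.71.

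Gstp1 was set beside 13 other genes known for higher expression in male than in female mouse liver, of which 11 had a probe set above the filter. At 21 vs 4 months 10 of the 11 were lower (45.2% of all kept genes), with a median of -0.28. At least 1.5-fold lower were 4 of them (0.423%). Ugt2b38, a glucuronosyltransferase, was at -1.41, and the steroid dehydrogenase Hsd3b5 and the organic anion transporter Slco1a1 were both at -0.79, while Nudt7, a coenzyme A hydrolase of peroxisomes, was at 0.07. In the comparison of 8 with 4 months, where Gstp1 was at -0.08, 8 of the 11 were higher and 3 lower, with a median of 0.05. The shares of all kept genes were 47.5% and 48.7%. The step of Gstp1 at 21 vs 4 months was of about the size of that list's median, though the list ranged from -1.41 to 0.07. The step at 8 vs 4 months had the other sign than the list's median. A part of sex-dependent expression in the differences of Gstp1 was not tested.

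Other glutathione transferases were measured for comparison. They came from the kappa, omega, zeta, microsomal and remaining classes, and also from the members' own classes. Of 16 listed, 10 passed the filter, including Gstm5 and Gstm7 of the mu class and Gstt2 and Gstt3 of the theta class. At 8 vs 4 months 7 of the 10 were lower and 3 higher (48.7% and 47.5% of all kept genes). Their median was -0.02, against -0.12 for the 10 members. Gstcd was at -0.12 and Gstt3, a theta enzyme, at -0.11, while Gstt2 was higher by 0.22 and Gstz1, which also acts in tyrosine breakdown, by 0.08. At 21 vs 4 months 7 were higher and 3 lower (51.4% and 45.2% of all kept genes) with a median of 0.15, none past 1.5-fold. Gstt3 was higher by 0.46 and Gstk1, a mitochondrial and peroxisomal enzyme, by 0.21, while Gsto1 was at -0.22 and Gstt2 at -0.21. The theta genes thus did not share a pattern: Gstt1 differed little, Gstt3 was at 7.79, 7.68, 8.21 and 8.25, and Gstt2 at 8.91, 9.13, 9.16 and 8.70. Of the mu class, Gstm5 was at -0.05 at 8 vs 4 and 0.16 at 21 vs 13 months, and Gstm7 at -0.09 and 0.22.

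Genes that make and recycle glutathione did not share a direction at 8 vs 4 or at 21 vs 4 months. In the first of these 8 of 16 were lower and 6 higher (48.7% and 47.5% of all kept genes), with a median of -0.03. Ggct, which opens gamma-glutamyl peptides, was at -0.34 and Gclm, the modifier subunit of the rate-limiting enzyme of glutathione synthesis, at -0.28. Gss, which completes the tripeptide, was higher by 0.11 and Anpep, an aminopeptidase that helps break down glutathione outside the cell, by 0.16. At 13 vs 8 months 12 of 16 were higher and 2 lower (50.2% and 45.9% of all kept genes), with a median of 0.10. At 21 vs 13 months 4 were higher and 12 lower (50.4% and 46.4%), with a median of -0.065. The counts at 21 vs 4 months were 7 higher and 9 lower (51.4% and 45.2%), with a median of -0.025. Of 6 genes for the export or further processing of conjugates 4 passed the filter. At 8 vs 4 months 2 were higher and 2 lower (47.5% and 48.7% of all kept genes), with a median of 0.075. Abcc4, an efflux transporter, was at 0.35 and Abcc2, which carries conjugates into bile, at -0.16.

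NRF2 targets other than the transferases were measured with 23 of 28 genes above the filter. Of these 12 were higher and 9 lower at 8 vs 4 months (47.5% and 48.7% of all kept genes), with a median of 0.01. The carbonyl reductase Cbr3 was at 0.60, which was the only 1.5-fold difference of the list at 8 vs 4 months, and Osgin1 was at 0.38. Gclm was at -0.28 and the carboxylesterase Ces2g at -0.26. At 21 vs 4 months 15 were higher and 8 lower (51.4% and 45.2% of all kept genes). The median was 0.07, the same as that of the 10 transferases. Osgin1, a growth inhibitor induced by oxidative stress, was at 0.59, the 1 gene of the list past 1.5-fold (2.1% of all kept genes higher). The quinone reductase Nqo1 was at 0.51, while Aox1 was at -0.35 and the epoxide hydrolase Ephx1 at -0.31. The median of this list at 8 vs 4 months thus lay above that of the transferases, while its genes went both ways. A part of NRF2 in the differences of the transferases was not tested. Of 9 NRF2 regulators 4 were lower and 5 higher at 8 vs 4 months (median 0.03), with Nfe2l2, which encodes NRF2, at -0.18, its inhibitor Keap1 at -0.10, Maff at 0.37 and Rbx1 at 0.15.

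Targets of CAR, PXR and AHR were mostly lower at 8 vs 4 months. Of 15 genes 11 were lower and 3 higher (48.7% and 47.5% of all kept genes), with a median of -0.11. At least 1.5-fold lower were 2 of the 15 (0.354%). Cyp2b10, the classic CAR target, was at 7.79, 6.82, 7.43 and 7.70, and the sulfotransferase Sult5a1 at 7.16, 6.51, 6.70 and 6.54. Alas1, the first enzyme of heme synthesis, was at 0.18 and Cyp2c37 at 0.10. At 13 vs 8 months 14 of 15 were higher (50.2% of all kept genes), with a median of 0.25. At 21 vs 4 months 7 were higher and 8 lower (51.4% and 45.2%), with a median of -0.02. Cyp2b10 and Gstm3 thus both had their lowest value at 8 months, and at 21 months Cyp2b10 was 0.09 below and Gstm3 0.25 above its 4-month level. Among 7 xenobiotic receptors and partners 5 were lower and 2 higher at 8 vs 4 months (median -0.04), with Ahr at -0.22, Ppara at 0.13 and Arnt at 0.10. Nr1i3, which encodes CAR, was at -0.07 and Nr1i2, which encodes PXR, at -0.07. A part of these receptors in the differences of the transferases was not tested.

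**Figure D3:**
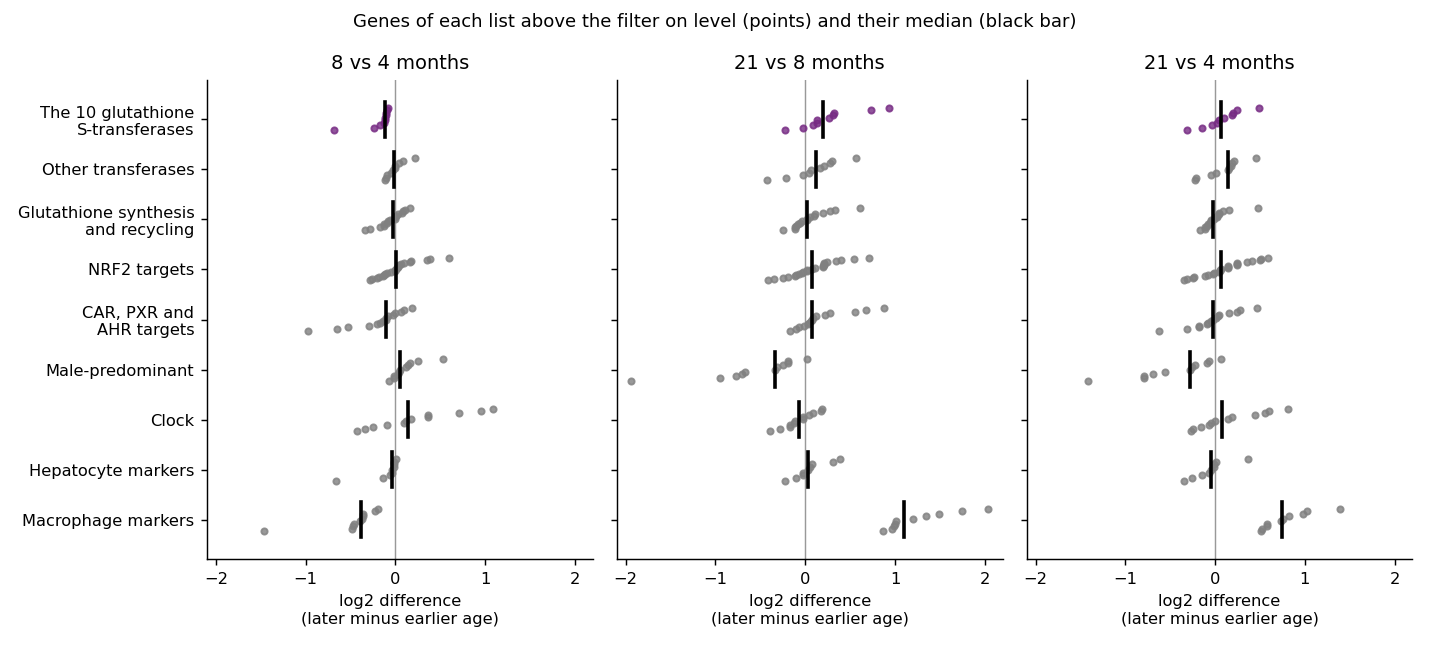
Log2 difference, later minus earlier age (x axis), of each gene above the filter (points) and the list median (black bar) for the 10 members and 8 other lists (rows) in 3 comparisons. The members' median is -0.12 at 8 vs 4 months, 0.20 at 21 vs 8 and 0.07 at 21 vs 4, and the macrophage markers, at -0.38, 1.105 and 0.745, differ more in each.

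Liver zones were described too, since several transferases vary along the lobule. The 11 pericentral genes had a median of 0.01 at 8 vs 4 months, with 7 higher and 4 lower (47.5% and 48.7% of all kept genes). Of the 7 periportal genes above the filter 6 were lower, with a median of -0.14, led by the urea cycle enzyme Ass1 at -0.50 and the histidine-degrading enzyme Hal at -0.36. Of the 9 hepatocyte markers 8 were lower and 1 higher at 8 vs 4 months, with a median of -0.04. The members' median of -0.12 lay below the hepatocyte and pericentral medians and near the periportal one, whose genes ranged from -0.50 to 0.02. A part of lobular zone in the differences of the transferases was not tested.

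The profile of Gstm3, the member with the widest range, was compared with that of every other kept gene by the Euclidean distance over the 4 arrays after each gene's own mean was subtracted. The 5 nearest genes were Cxcl9, a chemokine induced by interferon-gamma (distance 0.075), Rgs19, a regulator of G protein signalling (0.0995), Gm6958 (0.106), 6330407A03Rik (0.115) and Adgre4, an adhesion receptor of myeloid cells (0.128). Cxcl9 was at 7.03, 6.45, 6.71 and 7.31, and Adgre4 at 5.78, 5.24, 5.42 and 6.11. Among the other transferases Gstm2 was the nearest, at 0.362, with 99 kept genes closer than it, and Gstp1 the farthest, at 0.835. With 4 points per gene many profiles come close by their nature, so the order of these genes is a description of these arrays.

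**Figure D4:**
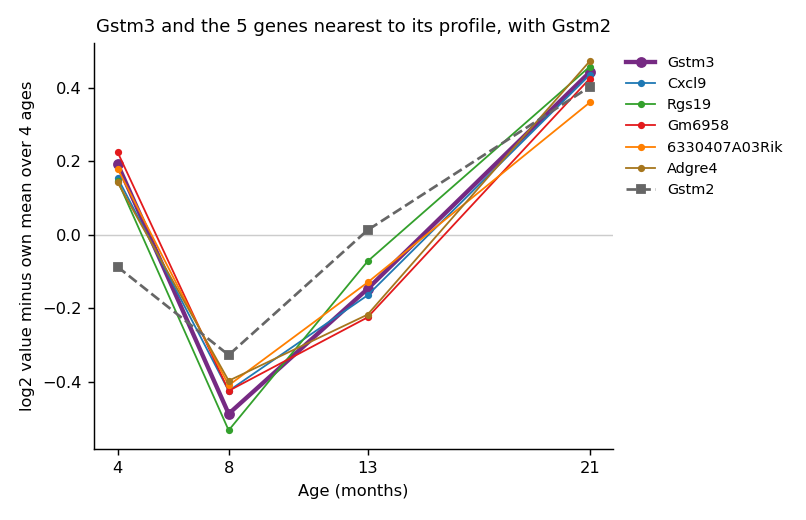
Log2 value minus the gene's own mean over the 4 ages (y axis) by age in months (x axis) for Gstm3, the 5 kept genes nearest to it and Gstm2, 1 point per pooled array. All 7 lines are lowest at 8 and highest at 21 months. Gstm2 lies below the others at 4 months and above them at 8 and 13 months.

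Macrophage markers moved with the low at 8 months. All 10 were lower at 8 vs 4 months (48.7% of all kept genes), with a median of -0.38. All 10 were higher at 21 vs 8 months (51.7%), with a median of 1.105. At 21 vs 4 months, where the median of the transferases was 0.07, the macrophage median was 0.745. Clock genes differed as well at 8 vs 4 months, with 8 of 12 higher and 4 lower (47.5% and 48.7% of all kept genes) and a median of 0.145. Dbp, a clock-controlled transcription factor, was at 7.98, 9.07, 9.14 and 8.79, and Ciart was 0.95 higher at 8 vs 4 months, while Arntl was at -0.43 and Nfil3 at -0.34. Dbp stayed high at 13 months, 1.16 above its 4-month level. Of the transferases 4 were higher and 6 lower at 13 vs 4 months (51.1% and 45.5% of all kept genes). At which hour the tissue was taken was not stated in the labels. The part of macrophage content and of the hour in the differences of the transferases was not tested.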

How the data were processed

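Liver RNA pooled from 6 male C57BL/6J mice at each of 4, 8, 13 and 21 months was hybridised to 1 array per age. The authors deposited log2 values for 45101 probe sets, computed with RMA per the submitters' processing notes, which name no version. Because RMA aligns the distributions of arrays, a general shift in 1 pool cannot be seen, and small signals have compressed differences. No detection calls were used.

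Groups came from the labelled age. Gene symbols came from the annotation of the array, and all 10 members matched a gene identifier of the GRCm38.p6 gene table. For a gene with several probe sets the one with the highest mean was used, and genes with a mean at or above 3.74 were kept. Differences and counts at 1.5-fold were computed with no test, since each age has 1 array. A linear trend on age was not run. The counting step was tested on simulated data. Alternatives were the mean over probe sets, filtering at the 75th percentile or not at all, median centring, quantile normalization, cyclic loess, and thresholds of 0.32 (log2) and 2-fold. The members and the 19 gene and marker lists were chosen with earlier results of these data known, and 10 genes stand in more than 1 list. Every member was described. Of other lists at most 4 genes were to be named, those with the 2 largest and 2 lowest differences in the comparison described. Genes named beyond these (Nr1i3, Nr1i2, Gstm5, Gstm7, and values at other ages) were chosen after their values were seen. The normalizations used limma 3.58.1 in R 4.3.3, figures matplotlib 3.10.9, and all else pandas 2.3.3 and numpy 2.4.6 under Python 3.11.15.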

Additional observations from a re-analysis of the deposited data

How the results depend on the processing

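No paired analysis was possible because each age has 1 array, and for the same reason no array could be left out as a replicate. All 10 members stayed lower at 8 vs 4 months with the mean over probe sets, no filter, the filter at the 75th percentile, median centring, quantile normalization and cyclic loess. The members' median in that comparison was between -0.185 and -0.0931 over these alternatives, the mean in place of the median and the median without Gstm3. In the other 5 comparisons the median kept its sign under every alternative, and the lowest at 21 vs 4 months was 0.01. The count at 21 vs 13 months, 1 member higher, became 0 with the mean over probe sets, with quantile normalization, with cyclic loess and at 2-fold, while the Gstm3 difference, 0.59, was 0.535, 0.56 and 0.57 under the first 3 of these. The count became 2 at a threshold of 0.32 (log2). At that smaller threshold the members higher were 1 at 13 vs 4, 1 at 21 vs 4 and 3 at 13 vs 8 months, and 1 was lower at 13 vs 4 months. At 2-fold the count lower at 8 vs 4 months became 0, as did the count higher at 21 vs 8 months. The causes were not tested, apart from the thresholds, which change the counts by construction. Small differences changed sign under at least 1 alternative: Gsta4 and Gstt1 at 13 vs 4, Gstm1 and Gstt1 at 21 vs 4, and Gstm1 at 13 vs 8 months, each at most 0.04 in size. A difference of the size of the median absolute difference of all genes, 0.09 at 8 vs 4 months, cannot be told from the spread between pools, which these arrays do not measure.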
